A study of Mus musculus with 24 samples.

Results

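The glucocorticoid receptor gene Nr3c1 had more ribosome-bound mRNA in oligodendrocytes (OLs), relative to all mRNA there, than it had in total RNA of the same tissue, and its OL level fell at 2, 10 and 42 days after spinal cord injury (SCI). Of its target genes Fkbp5 rose in OLs at 2 days, Klf9 fell at 2 days and Tsc22d3 fell at 10 days, and these 3 calls held without each single library. The falls of Nr3c1 and Klf9 at 10 days and of Tsc22d3 at 2 days were called with all libraries and lost without some single ones. So was the rise of Fkbp5 at 42 days. The fall of Klf9 at 42 days held without each single library but was lost without both libraries of a naive pool of mice. The 10 genes described here are the receptor Nr3c1, the related mineralocorticoid receptor Nr3c2, the steroid-activating enzyme Hsd11b1 and the 7 target genes Sgk1, Fkbp5, Tsc22d3, Zbtb16, Klf9, Per1 and Dusp1. They were chosen by symbol, as a pathway, from the 21965 genes of the count table, and the rule holds no measured value. All 10 had enough reads to be among the 17167 genes tested.

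The data were counts of sequenced reads per gene in 24 libraries, 3 in each of 8 groups. The mice were tamoxifen-induced female OL-Ribotag mice, of the labelled genotype plp-cre;rpl22HA, and the labels give an age of 10 to 12 weeks at SCI. In these mice a tamoxifen-inducible Cre switches on a haemagglutinin (HA) tag on the ribosomal protein RPL22, and the promoter that drives the Cre is also active in Schwann cells. Ribosomes pulled down with the tag gave the OL translatome, and total RNA was taken from the same lysate, so each OL library has a partner library from the same tissue pool. Contusive SCI of 50 kdyn was made at the ninth thoracic level, and tissue spanning the lesion was collected at 2, 10 and 42 days post-injury (dpi). Naive mice were uninjured and also tamoxifen-induced, while injured mice had anaesthesia, surgery and the opioid buprenorphine. Per the methods of the study, naive and dpi 42 tissue was taken on 1 day, equally long after tamoxifen. Mice of dpi 2 and dpi 10, injured in the same age range, were thus younger and nearer to tamoxifen than the naive mice they were compared with, and at these times age and time since tamoxifen cannot be told apart from the injury. Each library came from a pool of a pair of mice, and the 3 pools of a group are its replicates. For 2 dpi 42 libraries the labels conflict on whether they hold OL or total RNA. They were placed by their description, and their OL markers lay with those of the group so given.

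Corticosterone, the main glucocorticoid of mice, enters cells and binds the receptor encoded by Nr3c1, which is held in the cytoplasm by a chaperone complex until the hormone binds, then moves to the nucleus and switches genes on or off at DNA elements made of a pair of AGAACA sequences that face each other. The mineralocorticoid receptor encoded by Nr3c2 binds the same hormone with higher affinity, and HSD11B1 regenerates active hormone from its inactive form inside cells. Mature OLs are known to respond to glucocorticoids with induction of genes such as Sgk1, and synthetic glucocorticoids have been given after SCI in patients.

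The sequences before the start sites of the members are shown because the full palindromic response element was found before only 1 member, Sgk1. Windows from 250 bases before to 50 bases after each annotated start were read from RefSeq on GRCm38.p6, and 16 windows of 8 members were found; Nr3c1 and Zbtb16 had no entry. The element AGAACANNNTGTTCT, which reads the same on both strands, was in 3 of 32851 windows of all genes (0.00913%), and 1 of these was an Sgk1 window, with the copy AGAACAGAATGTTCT at chr10:21993701-21993715 starting 189 bases upstream of the start. The single arm AGAACA, which lies inside that element, was searched on both strands. It was in 4 of the 16 member windows, of Sgk1 and Tsc22d3, against 19% of all windows. The E-box CACGTG is the site of the clock proteins CLOCK and ARNTL. It was in 4 of the 16 member windows, of Sgk1, Per1, Fkbp5 and Dusp1, against 7.15% of all windows. The cAMP response element TGACGTCA was in 1 of the 16, that of Dusp1, against 1.79% of all windows. A match describes these letters in this window and is not evidence of binding. The 250 bases before each of these starts are given 5′ to 3′ on the strand of the gene, with matches to the element, the E-box and the cAMP response element in capitals, at chr10:21993640-21993889 (plus strand), chr11:69098699-69098948 (plus), chr17:28486150-28486399 (minus) and chr17:26508473-26508722 (minus).
Sgk1: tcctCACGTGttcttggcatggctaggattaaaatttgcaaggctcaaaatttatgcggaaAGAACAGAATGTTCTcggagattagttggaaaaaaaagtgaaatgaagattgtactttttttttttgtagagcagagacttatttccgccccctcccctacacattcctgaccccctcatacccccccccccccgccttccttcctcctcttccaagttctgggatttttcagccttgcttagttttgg
Per1: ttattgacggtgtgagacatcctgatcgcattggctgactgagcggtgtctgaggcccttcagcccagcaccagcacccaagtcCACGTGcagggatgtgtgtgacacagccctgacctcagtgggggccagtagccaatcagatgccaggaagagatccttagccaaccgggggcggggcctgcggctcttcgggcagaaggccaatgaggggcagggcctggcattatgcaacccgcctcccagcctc
Fkbp5: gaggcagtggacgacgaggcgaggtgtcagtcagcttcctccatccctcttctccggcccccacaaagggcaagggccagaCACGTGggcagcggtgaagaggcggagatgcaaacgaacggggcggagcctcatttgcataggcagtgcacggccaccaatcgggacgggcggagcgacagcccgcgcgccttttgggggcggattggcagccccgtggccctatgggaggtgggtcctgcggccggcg
Dusp1: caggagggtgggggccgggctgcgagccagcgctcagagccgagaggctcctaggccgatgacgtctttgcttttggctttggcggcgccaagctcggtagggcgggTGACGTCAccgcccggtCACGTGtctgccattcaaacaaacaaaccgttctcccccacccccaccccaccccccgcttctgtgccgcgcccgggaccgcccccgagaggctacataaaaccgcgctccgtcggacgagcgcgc

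The libraries held 25840127 to 32987841 counts. Levels are given as CPM (counts scaled to a common library size, with TMM factors), and differences as log2 with their standard error (SE) and q, the p-value of the edgeR quasi-likelihood test adjusted over all 17167 genes; a gene was called at q under 0.05. All 10 OL markers were enriched in OL libraries in every group, and their summed level was 102008 to 170585 CPM in OL libraries against 20224 to 29191 CPM in total RNA. Astrocyte markers were uneven among OL libraries, at 1732 to 3862 CPM in 7 and 6688 to 13448 CPM in 5. Naive OL library 3 was among these 5, at 8320 CPM against 1992 and 1732 CPM in naive OL libraries 1 and 2. Schwann cell markers summed to 22.1 and 25.7 CPM in naive OL libraries 1 and 2 but to 699.9 CPM in library 3. After SCI the 5 Schwann cell markers summed to 275 to 729 CPM in OL libraries at dpi 2, 884 to 1545 CPM at dpi 10 and 1266 to 1422 CPM at dpi 42, with 1 of 5 called higher at each time and none without reads, and the 10 myeloid markers rose from 10.9 to 17.4 CPM in naive OLs to 76.0 to 99.0, 239 to 272 and 152 to 250 CPM, with all 10 called higher. The part of either in the OL changes of the members was not tested. Both libraries of dpi 2 pool 2 held reads of Y-linked genes (97.8 CPM in OL, 77.9 CPM in total RNA, against 0 to 0.412 CPM in the other 22), in conflict with the label female. Results that rest on naive pool 3 or dpi 2 pool 2 are therefore also given without them.

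The plot of all 10 members by library shows levels that stay close together within a group for both receptors and spread widely for most target genes.

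**Figure D1:**
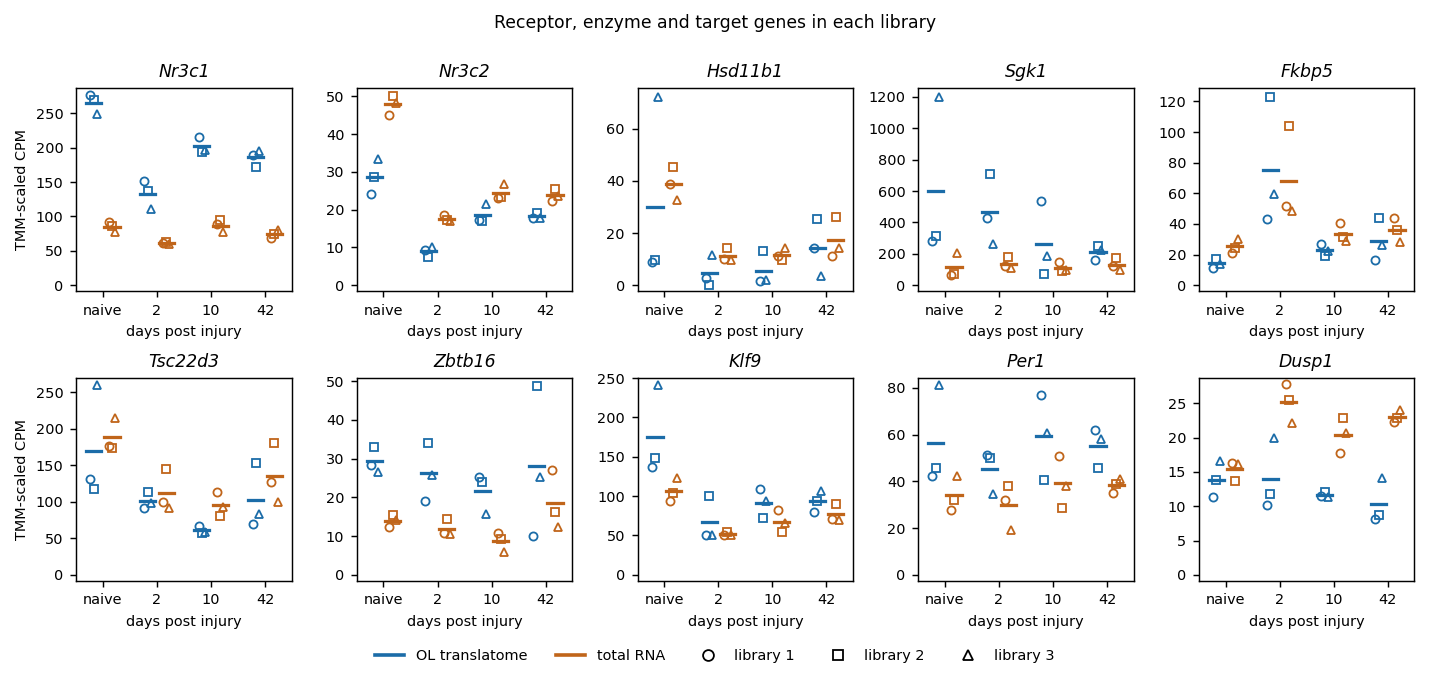
Level of each gene in TMM-scaled CPM (linear axes from 0, 1 panel per gene) against days post-injury, with 1 symbol per library, blue for the OL translatome, orange for total RNA, and a bar for the mean of 3 libraries. Naive OL library 3 stands far above the other naive OL libraries for Sgk1 (1200.2 CPM) and Hsd11b1 (72.0 CPM), and dpi 2 library 2 is highest for Fkbp5 in both RNA fractions.

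Among all 10 members, 5 were called higher and 1 lower in OLs than in total RNA in naive mice, against 24.9% and 30.5% of all genes. At dpi 2 the counts were 3 and 2 (24.8% and 28.8%), at dpi 10 2 and 2 (25.2% and 28.8%), and at dpi 42 1 and 2 (24.9% and 28.9%). These differences depend on scaling. With library sizes alone the median over all genes moved by -0.57 to -0.50 in the enrichment comparisons. The members called were then 2 higher and 3 lower in naive mice and 1 and 3 at dpi 2. At dpi 10 they were 1 and 4, and at dpi 42 1 and 3. Of all 17167 genes, that scaling called 2448 higher and 7575 lower in naive mice and 1853 and 8166 at dpi 2. The numbers were 2011 and 8155 at dpi 10, and 2199 and 7516 at dpi 42. Taking the tissue pool as a block, the 2 libraries of a pool being from 1 lysate, raised the dpi 10 count from 4 to 9 members, 5 higher and 4 lower. Of all 17167 genes, the block fit called 8782 there, 4245 higher and 4537 lower, against 9269 in the main fit.

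The plot of OL enrichment shows the receptors on opposite sides of 0.

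**Figure D2:**
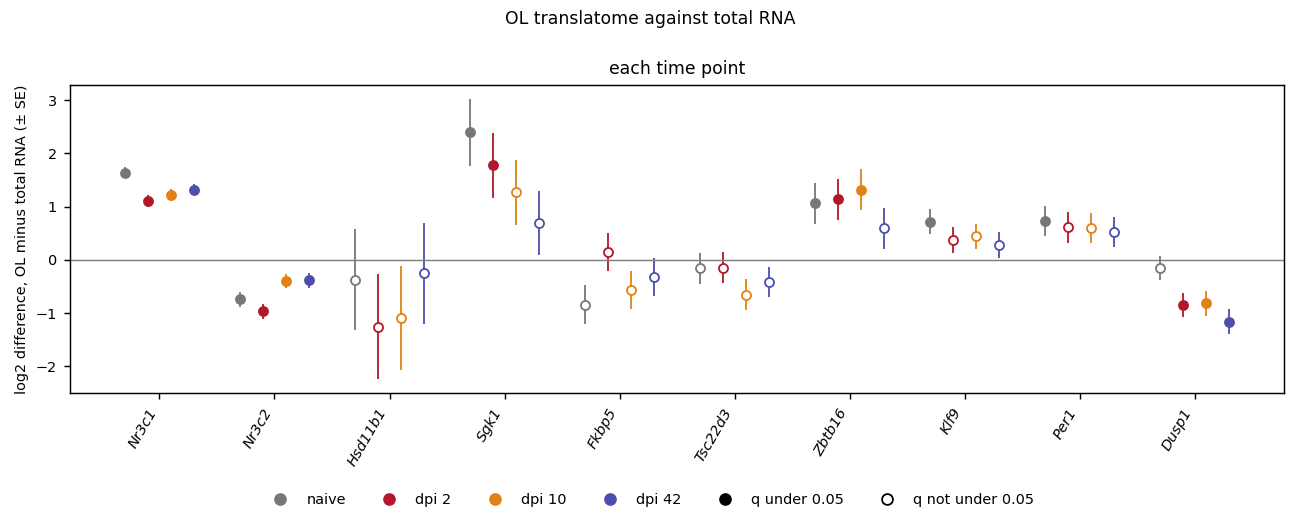
Log2 difference between the OL translatome and total RNA (vertical axis, ± SE) of each gene in naive mice and at dpi 2, 10 and 42, with filled points at q under 0.05. Nr3c1 is above 1 and Nr3c2 below 0 in all 4 groups, and Dusp1 is below 0 with filled points at the 3 times after SCI.

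Counted over all 10 members, OL changes called were 1 higher and 5 lower at dpi 2, 0 and 4 at dpi 10, and 1 and 3 at dpi 42. Of all genes, 38.4%, 18.2% and 33.1% were called in either direction at the 3 times. The median OL change of the members was -0.55, -0.54 and -0.58 at the 3 times, and the median over all genes was 0. Without dpi 2 pool 2 the dpi 2 count was 1 and 3, and without naive pool 3 the counts were 1 and 3, 0 and 3, and 0 and 2. In total RNA 2 were higher and 4 lower at dpi 2 (16.4% and 20.8% of all genes), 0 and 3 at dpi 10 (13.9% and 18.2%) and 0 and 1 at dpi 42 (10.4% and 12.1%). The total RNA counts moved with scaling, to 2 and 2, 0 and 1, and 1 and 1 with library sizes alone. Under that scaling the median of all genes shifted by 0.11 to 0.20. It called 3877 higher and 2197 lower of all 17167 genes at dpi 2. At dpi 10 the numbers were 3070 and 1839, and at dpi 42 2184 and 1154. OL and total RNA comparisons of 1 time share no library, but the 3 times share the naive libraries.

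Nr3c1 was the more abundant receptor transcript and was enriched in OLs in every group, under each alternative run. Of the other members, Per1 was enriched in every group in the fit with the tissue pool as a block, and Zbtb16 without dpi 42 OL library 1. In naive OL libraries the level of Nr3c1 was 276, 269.7 and 249 CPM, and in naive total RNA 91.3, 85.9 and 77.9 CPM. The difference of 1.64 ± 0.11 (q = 3.62e-11) was a 3.11-fold enrichment with no overlap of libraries. After SCI the enrichment was 1.11 ± 0.11 (q = 1.9e-08) at dpi 2, 1.22 ± 0.11 (q = 3.81e-09) at dpi 10 and 1.32 ± 0.11 (q = 1.2e-09) at dpi 42. Nr3c2 was instead lower in OLs than in total RNA in each group with a log2 difference of -0.74 ± 0.14 (q = 0.000105) in naive tissue and -0.96 ± 0.14 (q = 7.13e-06) at dpi 2. At dpi 10 and dpi 42 its difference was -0.39 ± 0.14 (q = 0.0212) and -0.39 ± 0.14 (q = 0.0239), and each of these 2 calls was lost when 1 of 3 libraries was left out (dpi 10 OL library 1 or 2 or total RNA library 3, dpi 42 OL library 1 or 3 or total RNA library 2), and with only the groups compared (-0.33, q = 0.0693 and -0.38, q = 0.0697). Per kilobase of exon, naive OLs held 34.5 CPM of Nr3c1 and 4.44 CPM of Nr3c2, a ratio of 7.95 ± 1.67 (SD, n = 3), while total RNA had a ratio of 1.502 ± 0.18 (SD, n = 3).

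Nr3c1 fell in OLs at every time after SCI. Its OL level was 151, 137 and 111 CPM at dpi 2, 216, 194 and 197 CPM at dpi 10 and 190.0, 172 and 196 CPM at dpi 42. No injured OL library reached the lowest naive one, and the dpi 2 libraries lay below those of both later times. The log2 change was -0.99 ± 0.11 (q = 2.79e-07) at dpi 2, that is to 0.503 of the naive level, then -0.39 ± 0.11 (q = 0.0131) at dpi 10 and -0.51 ± 0.11 (q = 0.000809) at dpi 42. The dpi 10 call was lost when naive OL library 1 or 2 or dpi 10 OL library 2 or 3 was left out (log2 change -0.38 to -0.36) and when libraries were scaled by their size alone (-0.27, q = 0.0557). In total RNA Nr3c1 was 61.8, 63.1 and 60.4 CPM at dpi 2, lower than every naive library. It fell there at dpi 2 only with a log2 difference of -0.46 ± 0.11 (q = 0.00152), a value that became -0.24 (q = 0.0589) with library sizes alone. The total RNA values of dpi 10 (89.2, 94.5 and 76.7 CPM) and dpi 42 (69.3, 74.0 and 79.7 CPM) overlapped the naive ones, and the differences were 0.03 ± 0.11 (q = 0.877) and -0.19 ± 0.11 (q = 0.209).

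The OL change of Nr3c1 differed from its change in total RNA at dpi 2. The differential OL enrichment, the OL change minus the total RNA change, was -0.53 ± 0.15 (q = 0.0203), and Nr3c1 was the only 1 of 10 members called in that comparison, in which 14.1% of all genes were called. The call was lost without dpi 2 pool 2 (-0.54, q = 0.0525), without naive total RNA library 3 (-0.47, q = 0.0636) and with only the groups compared (-0.53, q = 0.0583), and its largest value over libraries left out was -0.85 (q = 0.000748) without dpi 2 OL library 1. At dpi 10 and dpi 42 it was -0.42 ± 0.15 (q = 0.0992) and -0.32 ± 0.15 (q = 0.224), where 7.65% and 7.84% of all genes were called and none of the 10 members was by edgeR, with 1 and 1 by DESeq2 (Nr3c1 at dpi 10, Dusp1 at dpi 42) and 2 and 2 (Nr3c1 and Dusp1) at an unadjusted p under 0.05. DESeq2 called 1826 and 1972 of all 17167 genes there, so 1 of 10 members was near that share. The share of all genes at the unadjusted threshold was not counted. Nr3c1 passed at dpi 10 with only the groups compared (-0.43, q = 0.0385). It passed without naive OL library 3, at -0.58 (q = 0.0313) on dpi 10 and -0.52 (q = 0.0433) on dpi 42, and also without dpi 10 OL library 1 (-0.58, q = 0.0459) or dpi 42 OL library 3 (-0.53, q = 0.0364). The summed OL markers were 102008 to 129114 CPM in dpi 2 OL libraries against 126593 to 170585 CPM in naive ones, with 1 of 10 called higher, 4 lower and a median change of -0.30, and their part in the Nr3c1 result was not tested. In tissue samples such as these, fewer cells of a type and less RNA per cell cannot be told apart.

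Nr3c2 fell in both RNA fractions at all 3 times. OL libraries held 24.2, 28.6 and 33.4 CPM in naive mice, 9.41, 7.41 and 10.2 CPM at dpi 2, 17.4, 16.9 and 21.4 CPM at dpi 10 and 17.7, 19.1 and 17.9 CPM at dpi 42, and all injured libraries lay below all naive ones. The changes were -1.67 ± 0.14 (q = 1.35e-08), -0.63 ± 0.14 (q = 0.00295) and -0.66 ± 0.14 (q = 0.00102), and that of dpi 10 was -0.60 (q = 0.0656) with only the groups compared. Total RNA went from 45.2, 50.1 and 48.3 CPM in naive mice to 18.5, 17.2 and 16.9 CPM at dpi 2, with no overlap, and changed with a log2 difference of -1.45 ± 0.14 (q = 9.8e-08), -0.97 ± 0.14 (q = 1.62e-05) and -1.01 ± 0.14 (q = 2.2e-05) at the 3 times. Neurons are known to express Nr3c2. The 7 neuron markers summed to 8334 to 8858 CPM in naive total RNA and to 3795 to 7064 CPM after SCI, where 5, 7 and 4 of 7 were called lower at dpi 2, 10 and 42, and their part in the total RNA change was not tested. With Nr3c2 lower in relation to Nr3c1, the ratio per kilobase in total RNA was 2.97 ± 0.14 at dpi 2, 3.03 ± 0.53 at dpi 10 and 2.63 ± 0.20 at dpi 42 (SD, n = 3), above every naive library in each case.

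Both receptors were lower at dpi 2 than later in OLs. Against dpi 10, Nr3c1 differed by -0.60 ± 0.11 (q = 0.000258) and Nr3c2 with a log2 difference of -1.04 ± 0.14 (q = 1.74e-05). Against dpi 42 the differences were -0.48 ± 0.11 (q = 0.00298) and -1.02 ± 0.14 (q = 3.79e-05), and with only the groups compared that of Nr3c1 was no longer called (-0.46, q = 0.125) while Nr3c2 still was. In these OL comparisons 3 and 3 of 10 members were called (both receptors and Fkbp5), against 22.3% and 17.6% of all genes. In total RNA Nr3c1 was lower at dpi 2 than at dpi 10 (-0.49 ± 0.11, q = 0.00479), and Nr3c2 was lower at dpi 2 than at dpi 10 and dpi 42 with a log2 difference of -0.47 ± 0.14 (q = 0.0379) and -0.44 ± 0.14 (q = 0.0456), 2 calls that were lost when any 1 of the libraries compared was left out. These made 2 and 1 members called, against 7.84% and 10.8% of all genes.

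Hsd11b1, on chromosome 1 from 193221634 to 193264075 (minus strand, GRCm38), was the member with the widest spread in OLs. Its OL level was 8.74, 9.65 and 72.0 CPM in naive mice, 2.68, 0 and 11.6 CPM at dpi 2, 1.75, 12.9 and 1.83 CPM at dpi 10 and 14.1, 25.5 and 3.56 CPM at dpi 42. The 5 OL libraries with 6688 CPM or more of astrocyte markers held 11.6 to 72.0 CPM of Hsd11b1, and the 7 libraries with 3862 CPM or less held 0 to 9.65 CPM. Of the 7 markers, none was without reads in any OL group. Against naive OLs 1 was called lower at dpi 2, none at dpi 10 and 1 higher at dpi 42. Against total RNA 1 was called lower in OLs at dpi 10 and none in the other groups. The part of astrocyte RNA in these values was not tested. Dpi 2 OL library 2 had no Hsd11b1 read, against 474 reads in total RNA of the same pool; a count of 0 allows up to 3 reads in a library. The log2 change at dpi 2 was -2.66 ± 1.02 (q = 0.0444), a call that rested on naive pool 3: without it the change was -0.95 (q = 0.5). With replicate numbers as a block it was -2.53 (q = 0.0539). The call was also lost without dpi 2 OL library 1 or 2, without dpi 2 pool 2 (-2.08, q = 0.112), with library sizes alone and with only the groups compared (-2.64, q = 0.226). At dpi 10 and dpi 42 the values were -2.45 ± 1.01 (q = 0.103) and -1.07 ± 0.96 (q = 0.436), and that of dpi 10 passed without dpi 10 OL library 2 (-4.07, q = 0.0312). Between OLs and total RNA the difference at dpi 2 was -1.25 ± 0.99 (q = 0.293), and -3.09 (q = 0.0285) without OL library 3.

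Total RNA gave a tighter picture of Hsd11b1. It held 38.9, 45.3 and 32.6 CPM in naive mice, 10.0, 14.2 and 9.76 CPM at dpi 2, 11.1, 9.69 and 14.4 CPM at dpi 10 and 11.3, 26.1 and 14.1 CPM at dpi 42. Every injured library was below every naive one. The differences of -1.78 ± 0.97 (q = 0.164), -1.73 ± 0.97 (q = 0.194) and -1.18 ± 0.96 (q = 0.419) nevertheless did not pass in the fit over all 24 libraries, in which the spread of the OL libraries counts too. Fitted on the groups compared alone they were -1.66 (q = 1.58e-05), -1.58 (q = 6.23e-07) and -1.07 (q = 0.00527). The gene overlaps Lamb3 on the opposite strand, and since the counting is not stated to use strand, reads of the overlap cannot be told apart.

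**Figure D3:**
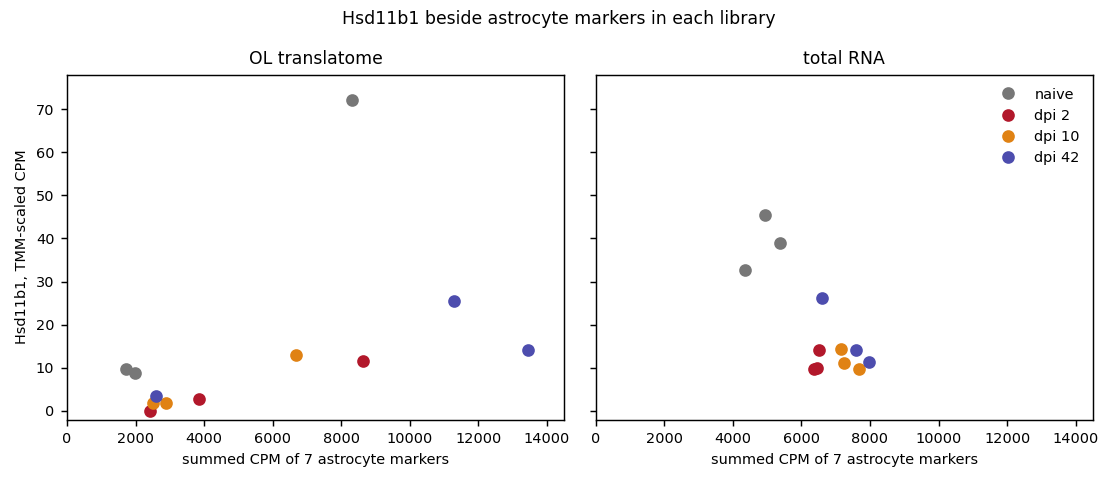
Hsd11b1 in TMM-scaled CPM (vertical axis) against the summed CPM of 7 astrocyte markers (horizontal axis), 1 point per library, 12 libraries in each panel, coloured by time. In the OL panel the 5 libraries at 6688 CPM of markers or more hold the 5 highest Hsd11b1 levels, and in the total RNA panel the 3 naive libraries are highest at the lowest marker sums.

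Fkbp5 encodes FKBP51, a co-chaperone that lowers the hormone affinity of the receptor and is induced by it. It was the only 1 of the 7 target members called higher in OLs after SCI. OL libraries held 11.5, 17.3 and 13.7 CPM in naive mice and 43.5, 123 and 59.8 CPM at dpi 2, so every dpi 2 library was more than the highest naive one. At dpi 10 the level was 26.8, 19.3 and 22.3 CPM, again all above naive, and at dpi 42 16.6, 43.8 and 26.6 CPM, where 1 library lay within the naive range. The log2 change was 2.41 ± 0.38 (q = 2.81e-05) at dpi 2, a 5.33-fold rise, 0.68 ± 0.36 (q = 0.216) at dpi 10 and 1.03 ± 0.36 (q = 0.0335) at dpi 42. Dpi 2 pool 2 was highest, and without it the rise was 1.87 (q = 7.78e-05). The dpi 42 call was lost without dpi 42 OL library 2 (0.56, q = 0.278), without naive pool 3 (1.01, q = 0.0731), without dpi 42 OL library 3 or naive OL library 1 or 3, and with only the groups compared (1.07, q = 0.0712).

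The same gene rose in total RNA at dpi 2. Total RNA held 21.3, 24.5 and 30.3 CPM in naive mice and 51.8, 104 and 48.2 CPM at dpi 2, with no overlap. The change was 1.42 ± 0.36 (q = 0.00355), 0.98 (q = 0.0156) without dpi 2 pool 2, and at dpi 10 and dpi 42 0.40 ± 0.36 (q = 0.43) and 0.51 ± 0.36 (q = 0.344). Fkbp5 in OLs was higher at dpi 2 than at dpi 10 by 1.73 ± 0.37 (q = 0.00148) (1.18, q = 0.00798 without dpi 2 pool 2) and than at dpi 42 by 1.38 ± 0.36 (q = 0.0108) (0.83, q = 0.0692 without it, and 1.40, q = 0.099 with only the groups compared). The dpi 42 difference was also lost without dpi 42 OL library 1 (1.08, q = 0.0592). Whether the OL rise exceeded that of total RNA depended on the pairing of libraries: the differential OL enrichment at dpi 2 was 0.99 ± 0.51 (q = 0.224), and 0.95 (q = 0.0449) with the tissue pool as a block. In naive mice Fkbp5 was lower in OLs than in total RNA in every library with a log2 difference of -0.84 ± 0.36 (q = 0.0552), which passed with the tissue pool as a block (-0.85, q = 0.00329).

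Klf9 and Tsc22d3 fell in OLs, opposite to Fkbp5. Klf9 encodes a Krüppel-like transcription factor. Its OL level was 137, 149 and 241 CPM in naive mice, 50.7, 99.8 and 50.9 CPM at dpi 2, 109, 72.6 and 94.1 CPM at dpi 10 and 79.9, 93.8 and 107 CPM at dpi 42, and no injured library reached the naive ones. The changes were -1.39 ± 0.24 (q = 0.00011), -0.94 ± 0.24 (q = 0.00938) and -0.91 ± 0.24 (q = 0.00599). Without naive pool 3, the highest of its group, they were -1.09 (q = 0.000966), -0.64 (q = 0.0652) and -0.61 (q = 0.0509), so that the later 2 calls were lost. The dpi 10 call was also lost without dpi 10 OL library 2 and with only the groups compared (-0.92, q = 0.0502). Against dpi 10 and dpi 42, dpi 2 differed by -0.45 ± 0.24 (q = 0.194) and -0.48 ± 0.24 (q = 0.185), and without dpi 2 pool 2 with a log2 difference of -0.85 (q = 0.0126) and -0.88 (q = 0.0141). Total RNA of Klf9 fell at dpi 2 with a log2 difference of -1.04 ± 0.24 (q = 0.00168) from 93.5, 103 and 123 CPM to 50.3, 54.4 and 50.6 CPM. It was lower at dpi 10 with a log2 difference of -0.66 ± 0.24 (q = 0.0404), a call lost without naive pool 3 (-0.55, q = 0.0942) and when naive total RNA library 2 or 3 or dpi 10 total RNA library 2 or 3 was left out, and at dpi 42 the difference was -0.47 ± 0.24 (q = 0.176). All dpi 42 total RNA libraries still lay below all naive ones. The SE includes the spread of the OL libraries, which was wider (within-group SD of log2 CPM 0.40, against 0.21 in total RNA). In naive mice Klf9 was higher in OLs than in total RNA by 0.72 ± 0.24 (q = 0.0149), a call lost without naive pool 3 (0.54, q = 0.0924), without naive total RNA library 1 (0.63, q = 0.0619) and with library sizes alone (0.22, q = 0.445).

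Tsc22d3 encodes GILZ, a leucine zipper protein through which glucocorticoids restrain inflammatory signalling. OL libraries held 131, 117 and 260.0 CPM in naive mice, 91.5, 114 and 98.8 CPM at dpi 2, 66.7, 57.5 and 59.3 CPM at dpi 10 and 69.1, 153 and 83.5 CPM at dpi 42. All libraries of dpi 2 and dpi 10 were below all naive ones, and those of dpi 42 overlapped them. The change at dpi 10, -1.47 ± 0.29 (q = 0.00129), held without naive pool 3 (-1.02, q = 0.0103). The change at dpi 2, -0.74 ± 0.29 (q = 0.049), did not: it was -0.29 (q = 0.442) without that pool and -0.68 (q = 0.0957) with replicate numbers as a block, and the call was also lost without dpi 2 OL library 1 or 3, without dpi 2 pool 2 (-0.83, q = 0.0562), with other scalings and with only the groups compared (-0.69, q = 0.159). At dpi 42 the difference was -0.73 ± 0.29 (q = 0.0572), and without dpi 42 OL library 2 it was -1.20 (q = 0.00426). Total RNA fell from 177, 174 and 215 CPM in naive mice with a log2 difference of -0.75 ± 0.29 (q = 0.0456) at dpi 2 and -0.97 ± 0.29 (q = 0.013) at dpi 10, and differed by -0.47 ± 0.29 (q = 0.266) at dpi 42. The dpi 2 call in total RNA was lost when any 1 of the libraries compared was left out except dpi 2 library 2, and the dpi 10 call without naive library 3 or dpi 10 library 2. Tsc22d3 was not called between OLs and total RNA in any group, and with the tissue pool as a block it was lower in OLs at dpi 10 (-0.64, q = 0.0395).

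**Figure D4:**
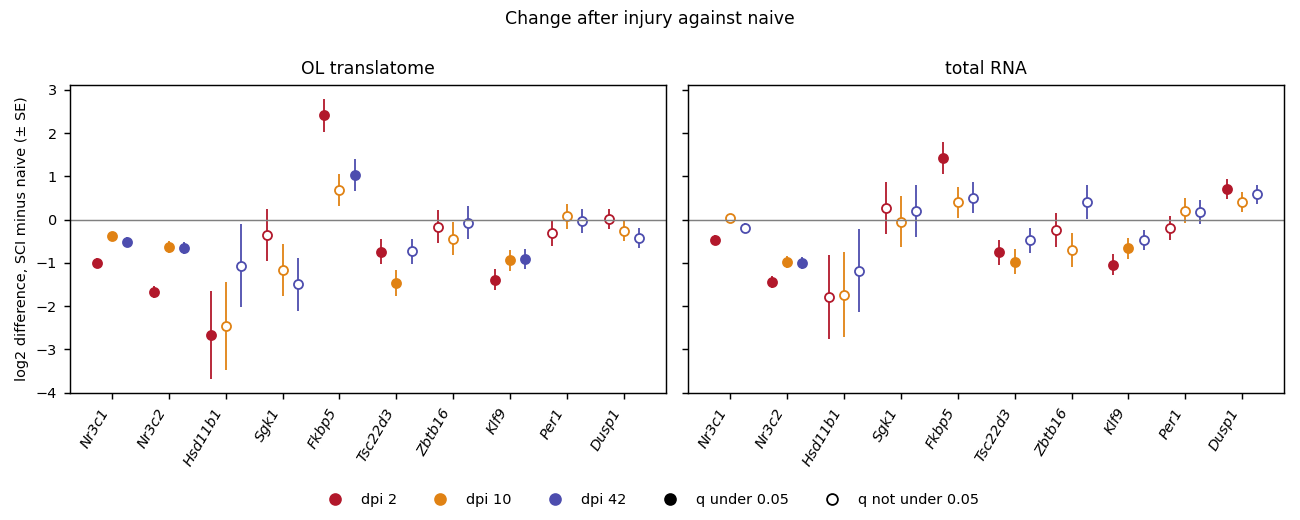
Log2 difference between injured and naive libraries (vertical axis, ± SE) of each gene at dpi 2, 10 and 42, in the OL translatome on the left and in total RNA on the right, with filled points at q under 0.05. Fkbp5 is the gene with filled points above 0 in OLs, and Nr3c1, Nr3c2 and Klf9 have filled points below 0 at all 3 times in OLs.

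Sgk1 encodes a kinase that acts on ion transport and cell survival. It was, per kilobase of exon, the most abundant member in OLs of every group, at 122, 95.1, 54.2 and 43.2 CPM in naive mice and at dpi 2, 10 and 42. Single OL libraries differed several-fold: 284, 311 and 1200.2 CPM in naive mice, 429, 709 and 261 CPM at dpi 2, 537, 74.1 and 186 CPM at dpi 10 and 161, 251 and 223 CPM at dpi 42. In total RNA it was 66.5, 68.6 and 206 CPM in naive mice and 120.0, 182 and 107 CPM at dpi 2. Sgk1 was higher in OLs than in total RNA in naive mice (2.40 ± 0.63, q = 0.00255), also without naive OL library 3 (1.55, q = 0.0239). At dpi 2 it was higher by 1.78 ± 0.61 (q = 0.0189), a call lost without dpi 2 pool 2 (1.61, q = 0.0886) and without total RNA library 1 or 3 of dpi 2. No change of Sgk1 after SCI passed the test in OLs, where the differences were -0.36 ± 0.60 (q = 0.702), -1.17 ± 0.60 (q = 0.201) and -1.50 ± 0.61 (q = 0.0646), or in total RNA, where they were -0.04 to 0.26. The 3 dpi 42 OL libraries were all below the naive ones, and the change passed there without naive OL library 1 (-1.89, q = 0.0327) or 2 (-1.86, q = 0.0369), and at dpi 10 without dpi 10 OL library 1 (-2.20, q = 0.0231). With SEs of this size differences as large as that of dpi 42 did not pass.

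Zbtb16 encodes the zinc finger factor PLZF. It was higher in OLs than in total RNA by 1.06 ± 0.39 (q = 0.0248) in naive mice, 1.14 ± 0.39 (q = 0.0182) at dpi 2 and 1.32 ± 0.39 (q = 0.00734) at dpi 10, with no overlap of libraries at these 3 times. The naive call was lost without naive pool 3 (1.14, q = 0.058) or total RNA library 1 or 3, the dpi 2 call without dpi 2 pool 2 (1.07, q = 0.0786) or total RNA library 1 or 3, and all 3 with library sizes alone (0.55, 0.56 and 0.74). At dpi 42 its OL libraries spread over 10.1, 48.7 and 25.2 CPM and the difference was 0.59 ± 0.39 (q = 0.203), or 1.00 (q = 0.0134) without OL library 1. Its OL changes after SCI were -0.16 ± 0.38 (q = 0.816), -0.44 ± 0.39 (q = 0.492) and -0.07 ± 0.38 (q = 0.985).

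Per1, a repressor in the circadian clock that glucocorticoids also induce, did not pass the test for a change at any time. Its OL level was 42.4, 45.6 and 81.2 CPM in naive mice, 51.3, 50.1 and 34.8 CPM at dpi 2, 77.0, 40.6 and 60.8 CPM at dpi 10 and 62.0, 45.8 and 57.9 CPM at dpi 42, and the groups overlapped. The OL enrichment in naive mice, 0.73 ± 0.29 (q = 0.0342), was 0.56 (q = 0.134) without naive pool 3, 0.77 (q = 0.0625) with only the groups compared and 0.24 (q = 0.504) with library sizes alone, and was lost also without total RNA library 1 or 2. With the tissue pool as a block Per1 passed in every group, by 0.69 (q = 0.000252) in naive mice, 0.65 (q = 0.000541) at dpi 2, 0.59 (q = 0.000929) at dpi 10 and 0.52 (q = 0.00237) at dpi 42. The dpi 42 value rests on a pairing by tissue number, from labels that conflict for 2 libraries. At dpi 10 the block also brought Sgk1 (0.86, q = 0.0483), Klf9 (0.44, q = 0.0486) and Fkbp5 (-0.56, q = 0.034) past the threshold.

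Dusp1 encodes a phosphatase that switches off MAP kinases. It rose in total RNA at dpi 2, from 16.2, 13.7 and 16.2 CPM to 27.7, 25.5 and 22.1 CPM with no overlap, by 0.71 ± 0.23 (q = 0.0167). The call was lost without naive total RNA library 2 or dpi 2 total RNA library 1. Total RNA was also above all naive libraries at dpi 10 and dpi 42, with differences of 0.41 ± 0.23 (q = 0.182) and 0.58 ± 0.23 (q = 0.069). These SEs include the spread of the OL libraries, which was wider (within-group SD of log2 CPM 0.36, against 0.14 in total RNA). In OLs it was 11.3, 13.8 and 16.5 CPM in naive mice and 10.2, 11.7 and 20.01 CPM at dpi 2, and no change passed with all libraries. The differences were 0.01 ± 0.23 (q = 1), -0.26 ± 0.23 (q = 0.496) and -0.43 ± 0.23 (q = 0.165), of which the last passed without dpi 42 OL library 3 (-0.79, q = 0.0105). Dusp1 was lower in OLs than in total RNA at each time after SCI with a log2 difference of -0.85 ± 0.23 (q = 0.00347), -0.82 ± 0.23 (q = 0.00454) and -1.16 ± 0.23 (q = 0.000204), and with a log2 difference of -0.15 ± 0.23 (q = 0.61) in naive mice. The test of that difference between injured and naive tissue gave -0.70 ± 0.32 (q = 0.169), -0.67 ± 0.32 (q = 0.247) and -1.01 ± 0.32 (q = 0.0566). It passed without dpi 2 OL library 3 at dpi 2 (-1.26, q = 0.00592) and without dpi 42 OL library 3 at dpi 42 (-1.48, q = 0.00336). The locus overlaps Ergic1 and the pseudogene Gm8225 on the opposite strand, whose reads cannot be told apart there.

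Pools of mice differed widely in most of the target genes. The within-group SD of log2 CPM in OLs was 1.00 for Sgk1, 0.64 for Zbtb16, 0.55 for Fkbp5, 0.44 for Tsc22d3, 0.40 for Klf9 and Per1 and 0.36 for Dusp1, each larger than in 85.3 to 97.7% of the 9199 genes with a mean log2 CPM of at least 3, whose median was 0.21. The receptors were steadier, at 0.14 for Nr3c1 and 0.19 for Nr3c2. In total RNA, with a median of 0.15 over 10669 genes, the SD was 0.58 for Sgk1, 0.40 for Zbtb16, 0.39 for Fkbp5, 0.37 for Per1, 0.32 for Tsc22d3 and 0.21 for Klf9, each larger than in 76.1 to 99.7% of these genes. Dusp1 was near the median there, at 0.14 and above 45.2% of genes, and the SD was 0.11 for Nr3c1 and 0.09 for Nr3c2.

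A pool high in the OL translatome was often high in total RNA of the same tissue too, though less so at dpi 42. In naive pool 3, Sgk1, Tsc22d3, Klf9 and Per1 were the highest of their group in both fractions, 4 of 10 members against 12.7% of all genes. Sgk1 there was 4.04 times the mean of the other pools in OLs and 3.04 times in total RNA. In dpi 2 pool 2, Sgk1, Fkbp5, Tsc22d3, Zbtb16 and Klf9 were highest in both, 5 of 10 against 11.9% of all genes, and Fkbp5 was 2.38 and 2.08 times the other pools. In dpi 10 pool 1, 6 of 10 were highest in both (Sgk1, Fkbp5, Tsc22d3, Zbtb16, Klf9 and Per1) against 14.1% of all genes, and Sgk1 was 4.14 times the other pools in OLs and 1.57 times in total RNA. At dpi 42 the pool that, by its tissue number, gave OL library 2 and total RNA library 1 was highest in both for Fkbp5 and Zbtb16, 2 of 10 against 7.65% of all genes. In the other 8 pools 0 to 2 of 10 were highest in both. Among these, naive pool 1 had 5 of 10 lowest in both, against 8.68% of all genes, and dpi 10 pool 2 had 4 of 10, against 10.1%. At dpi 42 the fractions could also part. Tsc22d3 in the pool of OL library 1 and total RNA library 2 was 0.58 times the other pools in OLs but 1.60 times in total RNA. The members highest together are counts over genes of 1 pool, which share that pool's libraries. The astrocyte and Schwann cell markers of naive OL library 3 and the Y-linked reads of dpi 2 pool 2 were given above, and their part in these levels was not tested.

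**Figure D5:**
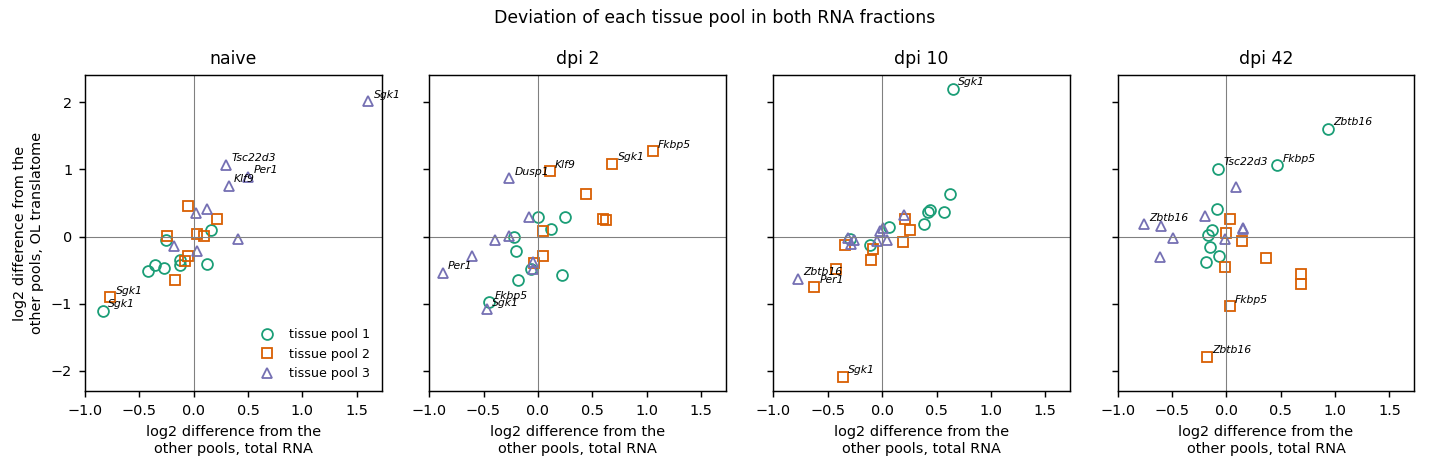
Log2 level of each tissue pool minus the mean of the other pools of its group, in total RNA (horizontal axis) against the OL translatome (vertical axis), for 9 members (Hsd11b1 is left out for its count of 0), 1 panel per time and 1 symbol per gene and pool. Naive pool 3, dpi 2 pool 2 and dpi 10 pool 1 lie mostly to the upper right, led by Sgk1 at 2.01, Fkbp5 at 1.27 and Sgk1 at 2.20 in OLs.

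The deviations from the group mean moved together between some members. Over the 12 OL libraries, Pearson's r of these deviations was 0.86 for Sgk1 and Per1, 0.83 for Sgk1 and Klf9, and 0.82 for Fkbp5 and Zbtb16. Over the 12 total RNA libraries it was 0.79 for Sgk1 and Klf9, 0.79 for Tsc22d3 and Klf9, and 0.74 for Fkbp5 and Zbtb16. Nr3c1 and Sgk1 had an r of 0.21 in OLs and -0.37 in total RNA. These are descriptions over libraries that share pools. Across all 24 libraries the 3 genes most like Nr3c1 in log2 CPM were Gab1 (r = 0.99), Npc1 (0.99) and Rnf13 (0.98), those most like Sgk1 were Arl4d (0.84), Ddit4 (0.83) and Pnpla2 (0.82), and those most like Tsc22d3 were Reep5 (0.80), Gm2115 (0.80) and Wasf3 (0.79). All of these values include the difference between OL and total RNA libraries.

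The machinery around the receptor was described by lists chosen by function and with earlier results known. Their counts of OL calls stand against 38.4%, 18.2% and 33.1% of all genes called in either direction at dpi 2, 10 and 42, and those of total RNA against the shares given for the members. Of 20 chaperones and cofactors of the receptor, 2 rose and 10 fell in OLs at dpi 2, 0 and 6 at dpi 10, and 1 and 12 at dpi 42, with medians of -0.31, -0.29 and -0.45, so that 12, 6 and 13 of the 20 were called. Those that fell included the corepressor Ncor1 (-0.88, -0.53 and -0.88 at the 3 times), the coactivator Ncoa1 (-1.10 and -0.81 at dpi 2 and dpi 10) and the acetyltransferase Ep300 (-1.21 at dpi 2). The co-chaperone Bag1, which counteracts receptor activity, rose by 0.89 at dpi 2 and 0.53 at dpi 42. In total RNA 1 rose and 11 fell at dpi 2, 0 and 12 at dpi 10, and 0 and 7 at dpi 42. With library sizes alone the falls were 8, 3 and 7 in OLs and 4, 6 and 2 in total RNA. Of all 17167 genes, that scaling called 2484, 862 and 2123 lower in OLs. In total RNA it called 2197, 1839 and 1154 lower.

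Of 10 tested genes for the supply, transport and metabolism of steroids, 5 rose and none fell in OLs at dpi 2 and at dpi 10, and 3 rose and 1 fell at dpi 42, which is 50.0%, 50.0% and 40.0% of the list. In total RNA 6 rose and none fell at dpi 2, 5 and 1 at dpi 10, and 2 and 1 at dpi 42. Tspo, the mitochondrial protein that marks reactive glia, rose from 1.01, 1.27 and 3.90 CPM to 24.2, 17.7 and 51.9 CPM at dpi 2, by 3.91. The efflux pump gene Abcb1b rose by 2.598, H6pd, whose product feeds cofactor to HSD11B1, by 2.24, and the reductase gene Srd5a1 by 0.88 at dpi 2. Tspo is also known from myeloid cells, whose markers rose in OL libraries as given above, with no read of Ccr2 in naive ones. Within each group, the OL libraries with 6688 CPM or more of astrocyte markers held more Tspo than the other OL libraries. The part of myeloid or astrocyte RNA in these counts and in those of the further targets was not tested.

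Of 31 further target genes tested, 14 rose and 3 fell in OLs at dpi 2, 5 and 2 at dpi 10, and 9 and 1 at dpi 42, with medians of 0.56, 0.30 and 0.40. The shares called, 54.8%, 22.6% and 32.3%, lay above that of all genes at dpi 2 and near it at dpi 10 and dpi 42. Without dpi 2 pool 2 the dpi 2 count was 11 and 7. Cebpd, a transcription factor of the acute phase, rose from 7.44, 6.18 and 9.18 CPM in naive OLs to 182, 224 and 189.7 CPM at dpi 2, by 4.71, and was still higher by 3.27 at dpi 42. Tgm2, a transglutaminase gene, rose by 2.84 at dpi 2. Anxa1, for a protein that restrains leukocytes, went from 1, 0 and 0 reads in naive OL libraries to 2.27, 6.32 and 1.38 CPM at dpi 2. Lcn2, for a siderophore-binding protein, had 0, 3 and 8 reads in naive OLs and 16.1, 7.29 and 73.6 CPM at dpi 2. Its OL libraries sorted by astrocyte markers in each group as those of Tspo did, while those of Cebpd, Tgm2 and Anxa1 did not in every group. In total RNA 14 of these targets rose and 2 fell at dpi 2, 8 and 1 at dpi 10, and 7 and 0 at dpi 42.

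Immediate early genes and clock genes, which share inputs with Dusp1, Klf9 and Per1, were counted in the same way. Of 14 immediate early genes, 10 rose and 1 fell in OLs at dpi 2, 8 and 1 at dpi 10, and 8 and 1 at dpi 42 (78.6%, 64.3% and 64.3% called). Junb rose from 2.06, 1.99 and 2.26 CPM to 48.7, 55.3 and 53.4 CPM at dpi 2, by 4.64, and Fos by 4.76, while Arc fell by 2.41. In total RNA 9, 6 and 6 rose and 1, 0 and 0 fell. Of 16 clock genes, 1 rose and 6 fell in OLs at dpi 2, 1 and 5 at dpi 10, and 2 and 4 at dpi 42, with Per3 (-1.73) and Tef (-0.72) among those that fell at dpi 2. The shares of clock genes called were 43.8%, 37.5% and 37.5%, near that of all genes at dpi 2 and dpi 42. In total RNA none rose and 7 fell at dpi 2, 1 and 6 at dpi 10, and 1 and 5 at dpi 42.

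Of 16 paralogs of the members, 5 rose and 5 fell in OLs at dpi 2, 3 and 2 at dpi 10, and 5 and 6 at dpi 42 (62.5%, 31.2% and 68.8% called). Fkbp1a, a relative of Fkbp5, rose by 1.76 at dpi 2, and Tsc22d4, a relative of Tsc22d3, rose by 1.22. Dusp16, a relative of Dusp1, fell by 1.51, and Per3 fell as given above. In total RNA 5 rose and 3 fell at dpi 2, 2 and 0 at dpi 10, and 2 and 1 at dpi 42.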

How the data were processed

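RNA sequencing libraries were made from OL-Ribotag mouse spinal cord, 12 from HA-purified ribosomes and 12 from total RNA. Per the labels and the methods of the study, the authors checked reads with FastQC 0.10.1, aligned them with STAR to mm10 and counted reads per gene with HTSeq 0.10.0 on GRCm38.p6; the deposited values are these raw counts, not normalised. Strand setting is not given in the sources used here. Reads that map to several genes are not counted by default in HTSeq, which lowers genes with close copies.

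Samples were grouped by the labels. The 21965 listed genes (21939 with a symbol) were filtered to the 17167 with a sum of at least 10 counts, scaled by TMM and tested in R 4.3.3 with edgeR 4.0.16 (quasi-likelihood test, 1 mean per group, all 24 libraries), with Benjamini-Hochberg adjustment over all genes tested. Totals were 25840127 to 32987841 counts (median 29062636), so that 3 counts are 0.0909 to 0.116 CPM; this limit covers counting error only. SD measures the spread between the 3 pools of a group. SE comes from the edgeR fit, in which the spread of a gene is estimated over all 24 libraries. The scripts were tested on simulated counts. The study itself used DESeq2; DESeq2 1.42.0, other scalings, filters, sample choices and blocks were run as alternatives.

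The 10 members and all lists were chosen with earlier results of these data known. All members are described. From each list, up to 4 genes with the smallest unadjusted p per comparison may be named; Anxa1 and Lcn2 were shown by their reads, as their naive counts are near 0. The likeness of members to other genes is Pearson's r of log2 CPM, computed for 4 members; that of Fkbp5 is not reported here. OL and total RNA libraries of the same lysate are paired by design, and the fit with the tissue pool as a block is given beside results it changes. Their deviations from group means correlated at 0.187 to 0.284 in naive pools, 0.22 to 0.266 at dpi 2, 0.0828 to 0.157 at dpi 10 and -0.0588 to 0.0254 at dpi 42, where the pairing follows the tissue number in labels that conflict for 2 libraries. Libraries of different tissue number correlated at -0.0684 to 0.0538 at dpi 42, so these values do not bear out the pairing there. Replicate numbers are shared by groups of different mice. Between naive and dpi 2 OL libraries same-numbered deviations correlated at 0.36 to 0.594, and differently numbered ones at -0.538 to 0.36. Naive library 1 correlated at 0.323 with dpi 2 library 2, and naive library 2 at 0.36 with dpi 2 library 1. The block on replicate number is given where it changes an OL call of dpi 2.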

Additional observations from a re-analysis of the deposited data

Results flagged for a closer look

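For 10 results a test of the difference between 2 effects or times itself passed (edgeR, q under 0.05). Their causes were not tested.

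The OL change of Nr3c1 at dpi 2 differed from that in total RNA by -0.53 (log2). The call was lost without dpi 2 pool 2 (q = 0.0525, edgeR), without naive total RNA library 3 (q = 0.0636) and with only the groups compared (q = 0.0583).

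In OLs, dpi 2 differed from dpi 10 by -0.60 for Nr3c1, -1.04 for Nr3c2 and 1.73 for Fkbp5, and from dpi 42 by -0.48, -1.02 and 1.38 for the same genes. In total RNA, dpi 2 differed from dpi 10 by -0.49 for Nr3c1 and -0.47 for Nr3c2, and from dpi 42 by -0.44 for Nr3c2. These contrasts share the dpi 2 libraries, of which pool 2 was highest for Fkbp5 in both fractions and held Y-linked reads. Without it the Fkbp5 differences were 1.18 (q = 0.00798, edgeR) and 0.83 (q = 0.0692), and those of Nr3c2 in total RNA were -0.46 (q = 0.0821) and -0.43 (q = 0.0974). With only the groups compared, those from dpi 42 were lost for Nr3c1 (q = 0.125) and Fkbp5 (q = 0.099) in OLs and for Nr3c2 in total RNA (q = 0.0858).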

How the results depend on the processing

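No result changed sign while called under any alternative run. The sign turned in 122 gene values with no call in either fit. With library sizes alone, 36 of the 80 mean levels moved by at least their SD. Of 170 values of the 10 members in 17 comparisons, 170 kept their side of the threshold with filterByExpr, 169 with every gene that had a count, 164 with DESeq2 size factors, 162 with the DESeq2 Wald test, 147 with library sizes alone and 137 when only the groups compared were fitted. Leaving out 1 library kept 1111 of 1200 values on their side.

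The number of members past the test moved by more than 1.5 times as follows. For OL enrichment it went from 6 to 3 in naive mice without naive pool 3, from 5 to 3 at dpi 2 without dpi 2 pool 2, and from 4 to 7 at dpi 10 when only the groups compared were fitted. The last fit called 10349 of 16284 genes there, against 9269 of 17167 in the main fit. For the OL change it went from 4 to 2 at dpi 10 with only the groups compared and from 4 to 2 at dpi 42 without naive pool 3. With only the groups compared, 2127 of 15242 genes were called at dpi 10, against 3126 of 17167 in the main fit. For the total RNA change it went from 3 to 1 at dpi 10 with library sizes alone and to 7 with only the groups compared, and from 1 to 2 at dpi 42 with library sizes alone or DESeq2 and to 5 with only the groups compared. Of all 17167 genes, the main fit called 5519 at dpi 10 and 3857 at dpi 42, and library sizes alone 4909 and 3338. The DESeq2 Wald test called 4160 at dpi 42. With only the groups compared, 8877 of 16435 genes were called at dpi 10 and 6256 of 16422 at dpi 42. For differential OL enrichment it went from 1 to 0 at dpi 2 with only the groups compared or without dpi 2 pool 2, from 0 to 1 at dpi 10 with library sizes alone, DESeq2 or only the groups compared, and from 0 to 1 at dpi 42 with DESeq2. Of all 17167 genes, the main fit called 2419, 1314 and 1346 at dpi 2, 10 and 42. The DESeq2 Wald test called 1826 and 1972 at dpi 10 and dpi 42, and library sizes alone 1306 at dpi 10. With only the groups compared, 1892 of 16613 genes were called at dpi 2 and 2336 of 16642 at dpi 10. For OL dpi 2 against dpi 42 it went from 3 to 1 with only the groups compared, a fit that called 732 of 15370 genes there, against 3015 of 17167 in the main fit. For total RNA it went from 2 to 1 against dpi 10 with library sizes alone or without dpi 2 pool 2, and from 1 to 0 against dpi 42 with library sizes alone, with every gene that had a count or without dpi 2 pool 2, and to 2 with only the groups compared. Of all 17167 genes, the main fit called 1346 against dpi 10 and 1848 against dpi 42, and library sizes alone 1536 and 2001. Against dpi 42, 1771 of 17999 were called with every gene that had a count and 3133 of 16582 with only the groups compared. Apart from fewer samples, the cause was not tested.

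With 1 library left out, the counts ranged from 3 to 6 for OL enrichment in naive mice and at dpi 2, from 1 to 3 for the total RNA change at dpi 10, from 0 to 2 for differential OL enrichment at dpi 2 and dpi 42 and from 0 to 1 at dpi 10, and were 1 and 0 for total RNA at dpi 2 against dpi 10 and dpi 42.

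With the tissue pool as a replicate block the count rose from 4 to 9 for OL enrichment at dpi 10 and from 1 to 2 for differential OL enrichment at dpi 2. Of all 17167 genes, 8782 and 2285 were called in these comparisons with the block, against 9269 and 2419 without it. This block moved 9 of 70 values past the threshold and took none below it, and the block on replicate number took 4 of 60 below it. Same-numbered deviations of naive and dpi 10 OL libraries correlated at -0.491 to 0.31, so there the numbers pair nothing. Leaving out naive pool 3 was chosen after seeing the data. The number of pools, 3 a group, and the spread between them limit what could be detected for Sgk1, Hsd11b1 and Zbtb16; the limit from depth was not compared with it.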
